A study of Mus musculus with 16 samples.

Results

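The subject is the set of circular RNAs (circRNAs) found in uninjured mouse hearts, the Sham group. A circRNA belongs to it when at least 1 of the 3 Sham libraries holds a count for it. By that rule it has 19171 circRNAs of 68854 listed, of which 40381 had a count in any of the 16 libraries. Of the 19171, 18536 were assigned by the authors to 5134 host genes, and 635 had no host gene.

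All hearts came from male C57BL/6 mice, and the design names 32 mice in 4 groups. In the Sham group the coronary artery was not tied. In the other groups, called MIRI for myocardial ischaemia and reperfusion injury, the left anterior descending artery was closed for 30 min and the heart was kept reperfused for 1 week, without further treatment (3 libraries), with AICAR, an activator of the energy-sensing kinase AMPK (5 libraries), or with Compound C, an inhibitor of that kinase (5 libraries). The labels do not say whether the 3 Sham libraries are 3 mice, so spreads and p-values measure the differences between these samples, which may be technical.

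A circRNA forms when the spliceosome joins the end of a downstream exon back to the start of an upstream one. The product has no free ends, resists exonucleases and can outlast the linear mRNA of its gene, and circRNAs are known to be plentiful in tissues of non-dividing cells such as heart and brain. Long introns on both sides, paired inverted repeats in them, and RNA-binding proteins such as Quaking are known to favour back-splicing. Linear RNA was digested with RNase R before sequencing, so the counts say how much of each circle was read and nothing about the linear mRNA of the gene. Each circle has 1 back-splice junction, and a count is a read across it. Levels are given as CPM, the counts scaled to a library total of 1000000, with no correction for length. Whether circles of different lengths are recovered equally was not tested, and the libraries differ in this, as the values of Sham 1 show.

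The Sham libraries held 119948, 151854 and 163551 counts and the other 13 from 124023 to 240889. A single count was worth 6.11 to 8.34 CPM in Sham, and no count of 1 occurs in the table, so 1 read may lie behind a listed 0. The label names the cell type as cardiac muscle cell, although no sort is described. Of 11 cardiomyocyte marker genes 10 had a circRNA in Sham (1.84% ± 0.197 of counts, SD, n = 3, as all such values below unless stated), and Pln was at 0. Most of this share came from Ttn (9699 ± 1586 CPM) and Ryr2 (7846 ± 1072 CPM), and Ldb3, Mybpc3 and Myh7 had at most 6 counts in a Sham library. Circles were also listed for 7 of 8 endothelial (0.269% ± 0.0572, with Kdr at 0) and 5 of 7 leukocyte markers (0.201% ± 0.0560, with Ptprc and Csf1r at 0). Of the fibroblast markers 4 of 7 had one (0.0101% ± 0.00319, with Col1a1, Col1a2 and Tcf21 at 0). Cdh5 and Itgam had 3 and 2 counts, each in Sham 3 only. The share of all genes with a circRNA was not taken, so such numbers of genes, here and in the lists below, have no baseline. Of 4 erythroid markers 0 had one. In such bulk samples, fewer cells of a type and less RNA per cell cannot be told apart.

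Sham 1 stood apart from Sham 2 and 3. It was the shallowest library, and its circles were shorter. Among 1184 exonic circRNAs with a mean Sham count of at least 20, the median log2 ratio of Sham 1 to the mean of Sham 2 and 3 (CPM + 10) was 0.41 for 182 circles of 200 to under 300 nucleotides (nt) and -0.30 for 228 circles of 600 to under 1000 nt. The Spearman correlation of length with that ratio was -0.432, against -0.121 for length with the ratio of Sham 2 to Sham 3. These are descriptions across circRNAs of the same libraries, and what sets Sham 1 apart was not tested. Most values that rest on Sham 1 are given for each library.

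The 9 junctions below show how the leading circles of Sham hearts are closed. They belong to 9 of the 10 circles among the 20 most abundant whose ends enclose only coding sequence of a matching GENCODE M21 transcript. The junctions were read from that transcript, and the junction of the other circle, of Arhgap26, is not shown. Which exons lie between the ends was not measured. Each line gives the last 20 bases of the last exon in lower case and, in capitals, the first 20 bases of the first exon, to which they are joined back.
Nfix: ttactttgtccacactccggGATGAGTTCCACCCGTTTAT
Asph: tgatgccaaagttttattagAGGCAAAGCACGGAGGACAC
Ttn: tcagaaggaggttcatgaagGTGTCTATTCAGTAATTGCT
Ogdh: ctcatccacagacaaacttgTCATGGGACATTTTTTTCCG
Rnf169: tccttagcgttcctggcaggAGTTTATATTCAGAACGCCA
Cpeb3: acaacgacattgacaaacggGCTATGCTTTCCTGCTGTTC
Lrch3: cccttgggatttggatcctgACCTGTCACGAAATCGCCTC
Med13l: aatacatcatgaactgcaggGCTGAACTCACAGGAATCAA
Mmp15: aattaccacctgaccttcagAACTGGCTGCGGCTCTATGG

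In the 9 junctions shown the base before the join is G, a base typical of the end of exons, and in 4 the base after it is G. Over 16274 exonic circRNAs of Sham with both ends in a transcript, the last base before the junction was G in 80.7%, and in 80.0% of 81453 internal exons of the same transcripts. The first base after it was G in 45.6% of circles and in 47.5% of those exons. For the 99 of these circles with at least 1000 CPM the shares were 77.8% and 52.5%.

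The most abundant circRNA of the uninjured heart was a single exon of Nfix, a transcription factor gene of the nuclear factor I family. The circle (novel_circ_060633) is exon 2 of 11, 532 nt, on chromosome 8 from 84771784 to 84772315 (GRCm38, minus strand). It had 1989, 2546 and 2393 counts in Sham 1, 2 and 3, or 16582, 16766 and 14632 CPM. That was 1.60% ± 0.118 of all counts, with its 3 values closer together than those of most other leading circles (SD 7.40% of the mean). In the other 13 libraries it ran from 9527 to 15139 CPM with a median of 13828. Sham 1 and Sham 2 lay above all 13 and Sham 3 within their range, and the difference was not tested here. The circle made up 96.8% of the summed counts of the 9 Nfix circRNAs.

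A circle of Gigyf2, whose product takes part in repressing translation, came next with 8095, 12446 and 10449 CPM (novel_circ_003594, 490 nt, chromosome 1). Its lowest value was in Sham 1. The circle of Asph followed with 8612, 7948 and 5968 CPM (novel_circ_044015, chromosome 4 from 9635901 to 9639347, minus strand, exons 2 to 4 of 5 of the matching transcript). Asph encodes aspartate beta-hydroxylase and, from alternative transcripts, junctin and junctate of the sarcoplasmic reticulum. Its circle is 264 nt, all coding and a multiple of 3, or 88 codons, and is given whole, with the 20 bases on each side of the junction in capitals at its ends: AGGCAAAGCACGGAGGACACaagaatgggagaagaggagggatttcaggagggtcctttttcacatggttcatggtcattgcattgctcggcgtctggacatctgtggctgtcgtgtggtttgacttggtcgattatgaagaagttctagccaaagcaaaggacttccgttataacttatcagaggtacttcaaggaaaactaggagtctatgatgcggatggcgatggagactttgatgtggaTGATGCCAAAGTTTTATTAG. Elf2, an ETS transcription factor gene, had 6603, 7053 and 7777 CPM (novel_circ_041234, 481 nt, chromosome 3).

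Genes of the heart muscle machinery held the next places. The leading circle of Ttn, the giant spring protein of the sarcomere, had 5286, 6473 and 8523 CPM (novel_circ_036234, exons 104 to 110 of 312, 780 nt, chromosome 2 from 76863274 to 76868085, minus strand). The introns beside it are short, 201 nt upstream and 414 nt downstream. The circle of Slc8a1, the sodium-calcium exchanger gene NCX1, is its single exon 2 of 1830 nt, between introns of 88670 and 202215 nt (novel_circ_027970, chromosome 17). It had 3535, 5571 and 6909 CPM in Sham and 3768 to 13685 in the other libraries (median 10063), a difference that was not tested here. Its Sham 1 value lies below all 13 other libraries.

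The remaining leading circles were of metabolic and regulatory genes. Ogdh, a subunit gene of the citric acid cycle enzyme 2-oxoglutarate dehydrogenase, gave 4177, 4820 and 5050 CPM (novel_circ_010928, chromosome 11). Fhl2, a LIM-domain gene of heart muscle, gave 4410, 3438 and 4372 CPM (novel_circ_000420, exons 2 to 3 of 6), against 1988 to 4346 in the other libraries (median 2578). Cpeb3, which encodes a regulator of translation, gave 4277, 3609 and 2917 CPM (novel_circ_032910, exons 8 to 10 of 11) against 1281 to 3181 (median 2063). Both Sham ranges overlap those of the other libraries. Sham 1 and Sham 3 for Fhl2, and Sham 1 and Sham 2 for Cpeb3, lay above all of the others. The differences were not tested here. Phf21a, Rbm4, Rnf169, Lrch3, Med13l, the SRF coactivator gene Myocd, Nfkb1, Zeb1, Mmp15 and Arhgap26 made up the rest with a host gene, from 2886 to 4736 CPM on average.

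The 20 circles held 10.3% of Sham counts. Of the 20, 19 were exonic, 14 had both ends in a GENCODE transcript, 10 of these began at exon 2 and 3 were single exons. Their SD over the Sham libraries ran from 4.31% of the mean (Phf21a) to 34.7% (Med13l, with 4702, 3194 and 2360 CPM). Of the 5 shorter than 300 nt by the authors' listing, 4 were highest in Sham 1, and of the 7 longer than 600 nt, 5 were lowest there. The listed length is not always the exon sum: for Rnf169 it is 2818 nt where exons 2 to 4 sum to 340. For Ogdh it is 386 nt against an exon sum of 295, and for Phf21a 432 against 396. Which exons these circles hold was not measured. All 20 had a count in every library, and 15 to 17 of them were among the 20 most abundant circles of each of the other 13, against 16 to 18 in each Sham library.

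**Figure D1:**
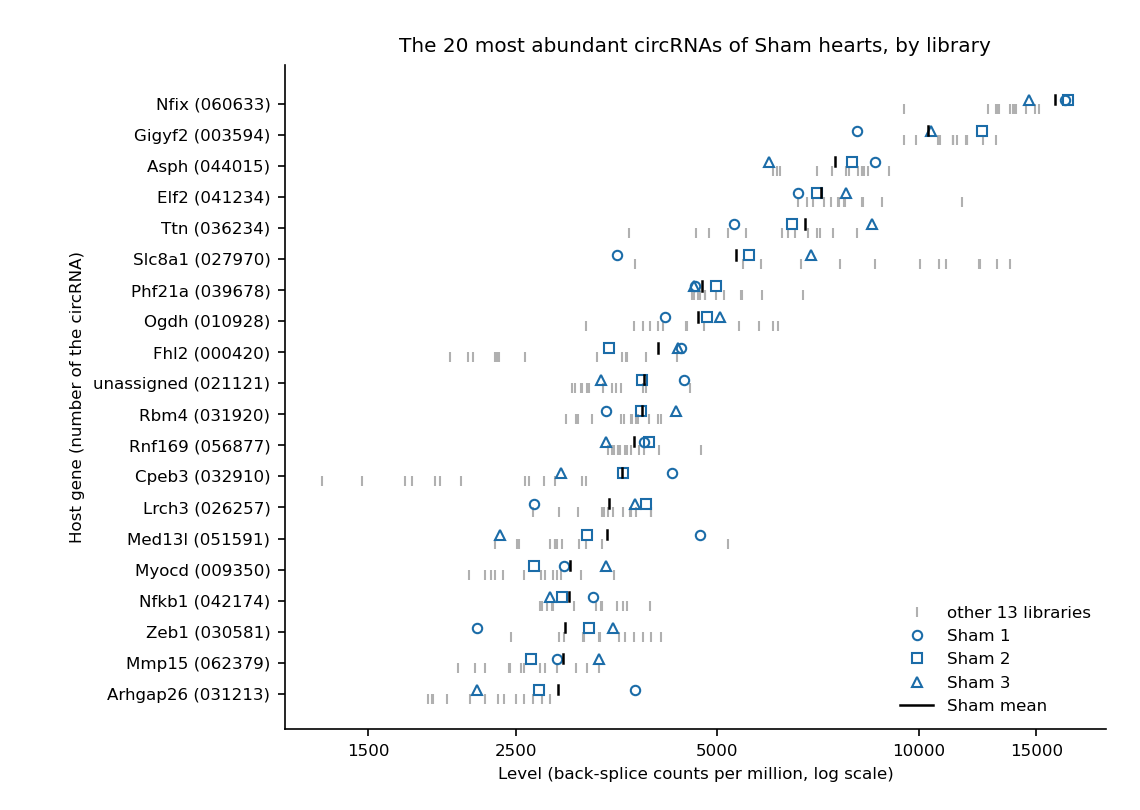
Levels of the 20 most abundant Sham circRNAs in CPM (log axis), 1 row per circRNA, with open symbols for the 3 Sham libraries, a black line for their mean and grey ticks for the other 13 libraries. Nfix leads at 14632 to 16766 CPM in Sham, and the Slc8a1 circle is lowest in Sham 1.

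Counts were spread over many circles. In each library's own ranking the 10 most abundant held 7.14% ± 0.331, the 100 most abundant 24.1% ± 0.336 and the 1000 most abundant 58.8% ± 0.423 of counts. The first 595, 606 and 577 circRNAs held 50% of the counts of Sham 1, 2 and 3. At least 1000 CPM on average was reached by 121 circles, at least 100 by 1711 and at least 10 by 10460.

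**Figure D2:**
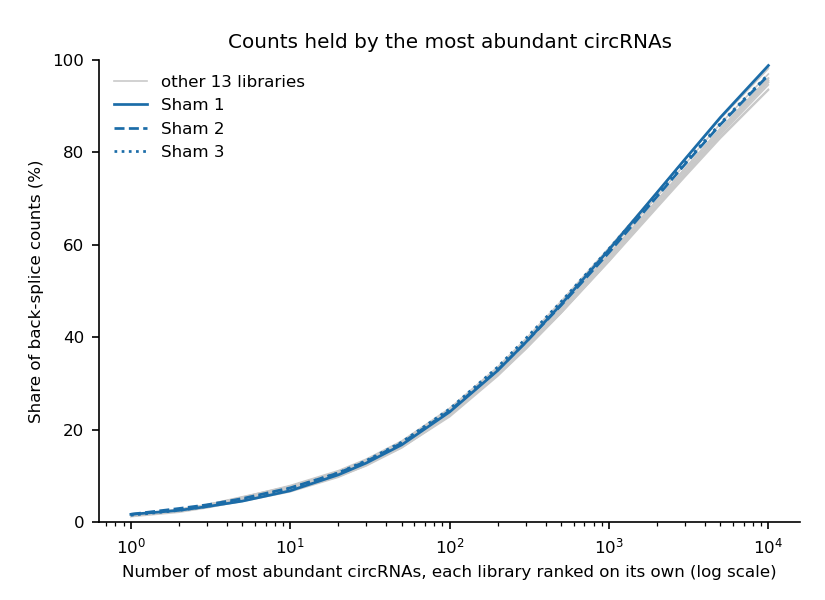
Share of back-splice counts (percent) held by the most abundant circRNAs, against their number on a log axis, each library ranked on its own, with Sham 1, 2 and 3 in blue and the other 13 libraries in grey. The lines nearly coincide, and the 1000 most abundant hold 58.8% ± 0.423 of Sham counts.

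Most kinds were rare and most counts came from shared kinds. In all 3 Sham libraries 6253 circles were counted, which is 32.6% of kinds and 87.4% of counts. Another 4059 were in 2 libraries and 8859 in 1, and the latter held 5.58% of counts with a median of 2 counts. Of the 19171 Sham circles, 2096 had no count in the other 13 libraries, and these held 1.18% of Sham counts. In 1 Sham library only were 2004 of them, 92 were in 2 and 0 in all 3, and the highest had 19 counts in all. In contrast 3900 circles were counted in every one of the 16 libraries and held 78.1% of Sham counts.

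Among 1235 circles with a mean Sham count of at least 20, the Spearman correlation between libraries was 0.807 (Sham 1 and 2), 0.761 (Sham 1 and 3) and 0.862 (Sham 2 and 3). The lowest pair includes Sham 1. All pairs differed by more than counting noise, with a chi-square per degree of freedom of 3.49, 5.23 and 2.50. The 37 circles of at least 300 counts varied by a median of 15.5% of their mean, where the Poisson value for counting is 4.83%. For the 3474 circles of 5 to under 20 counts the median spread was 34.9%, beside a Poisson value of 35.4%. The median of an SD over 3 values lies below the true SD. These values thus cannot show that the spread of the 3474 was counting alone.

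A few well-counted circles were all or none between Sham libraries. Of the 1235, 12 were listed at 0 in at least 1 Sham library, and they are named here after their values were seen. A circle of Stau2, an RNA-binding protein gene, had 0, 0 and 127 counts (novel_circ_000158), and over the 16 libraries it was at 0 in 12 and between 93 and 174 in 4. A circle of Dlg1, a scaffold gene of cell junctions, had 0, 0 and 60 counts and was at 0 in 8 libraries and between 44 and 63 in the other 8. One of Asxl1, a chromatin regulator gene, had 74, 39 and 0 counts, and a circle of 285 nt within Malat1, a long non-coding RNA gene, had 72, 0 and 0. Fry, Nf2, Rcor3, St7, Fbxw4, Scamp1 and 2 circles without a host gene make up the 12. Over all libraries 92 of 1432 circles with a mean count of at least 20 had such a 0, and in 84 of the 92 the smallest count above 0 was at least 10. Whether the junction was absent or not called was not tested.

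By the authors' Type, 17325 circles were exonic, 1076 exon-intron, 635 intergenic and 135 intronic. Exonic circles took 95.02%, 95.29% and 95.55% of counts in Sham 1, 2 and 3. Exon-intron circles took 2.32% ± 0.116, intergenic 2.12% ± 0.137 and intronic 0.271% ± 0.0129. Exonic circles were also the more often shared, with 34.0% of them in all 3 Sham libraries against 19.98%, 19.84% and 14.07% of the other Types in the same order. They also had more counts, a median of 5 summed over Sham against 3 for each other Type, and sharing was not compared at equal counts.

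Exonic circles were short. Their listed length had a median of 490 nt, with 5% below 229 nt and a 75th percentile of 759 nt. Circles of 200 to under 500 nt gave 56.2% ± 3.29 of exonic counts. Those of 200 to under 300 nt alone gave 18.2%, 14.0% and 12.9% in Sham 1, 2 and 3. Weighted by counts the median was 428, 464 and 473 nt in Sham 1, 2 and 3. The listed length equals the sum of the exons in 85.1% of the 16274 circles with both ends in a transcript, and is longer in 2416. For intergenic and intronic circles it equals the genomic span in 100%, so their medians of 7640 and 968 nt are not spliced lengths.

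**Figure D3:**
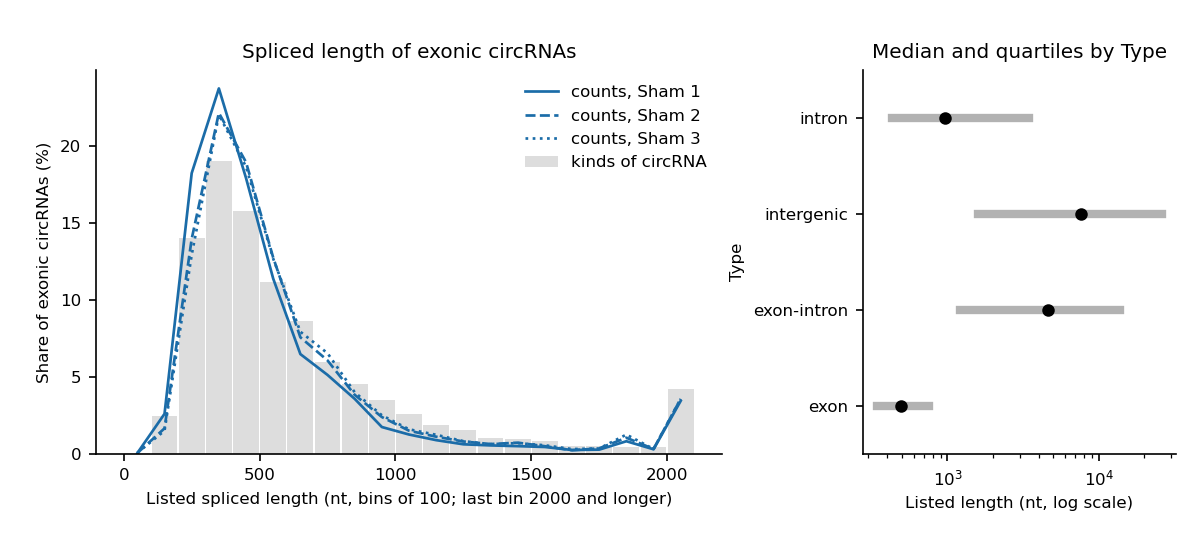
Left, the share of Sham exonic circRNAs (grey bars, each kind once) and of exonic counts (blue lines, 1 per library) in bins of 100 nt of listed spliced length, with the last bin for 2000 nt and longer. Right, the median (point) and quartiles (bar) of listed length for each Type on a log axis, from 490 nt for exonic to 7640 nt for intergenic circles, whose listed length is the genomic span.

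The shortest circle with a mean count of at least 20 came from Ube2h, a ubiquitin-conjugating enzyme gene. It holds 2 exons and 93 nt, all coding, and had 150, 138 and 141 CPM. The next were of Pxdn and Tra2b (144 nt each), Frs2 (154 nt) and Tfdp2 (163 nt). Of circles with that mean count, the 5 longest by listing were all intergenic, from 26080 to 58124 nt of span.

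By their ends, most exonic circles lay inside the coding part of their genes. Of the 16274 with both ends in a transcript, 86.9% enclosed only coding sequence of it (82.5% ± 0.585 of counts). Another 10.4% ran from the 5′ UTR into coding sequence, and 12 included exon 1. The coding-only share was 87.6% at up to 15 CPM and 80.8% above 300 CPM. Which exons lie between the ends was not measured. They held 2 exons in 21.2%, 3 in 23.9% and 4 in 18.3% of cases. Single exons were 2.96% of circles but 6.96% ± 0.130 of counts, and had a median of 419 nt against 146 nt per exon in circles of 2 exons. The exon sum was a multiple of 3 in 39.3% of the 14147 coding-only circles. Neither that share nor the coding-only share was taken for other runs of exons of the same transcripts, so they have no baseline.

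Exon 2, the first that has an acceptor site, opened 24.1% of these circles and carried 36.6% ± 0.454 of their counts. In transcripts of at least 10 exons it opened 19.6% of circles, with 30.6% of counts, against 11.6% for exon 3. The share was 21.7% of 8985 circles at up to 15 CPM and 38.7% of 473 circles above 300 CPM. Over the same bins the median upstream intron went from 5367 to 13253 nt and the median downstream intron from 4414 to 12288.5 nt, and the median exon sum from 488 to 400 nt. Across circles the Spearman correlation of level with intron length was 0.140 upstream and 0.174 downstream. The upstream value was 0.152 among circles that open at exon 2, whose upstream introns are longer (median 15945 against 4899 nt), and 0.109 among the others. These are descriptions over circles of the same 3 libraries, and circles of 1 gene share introns.

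**Figure D4:**
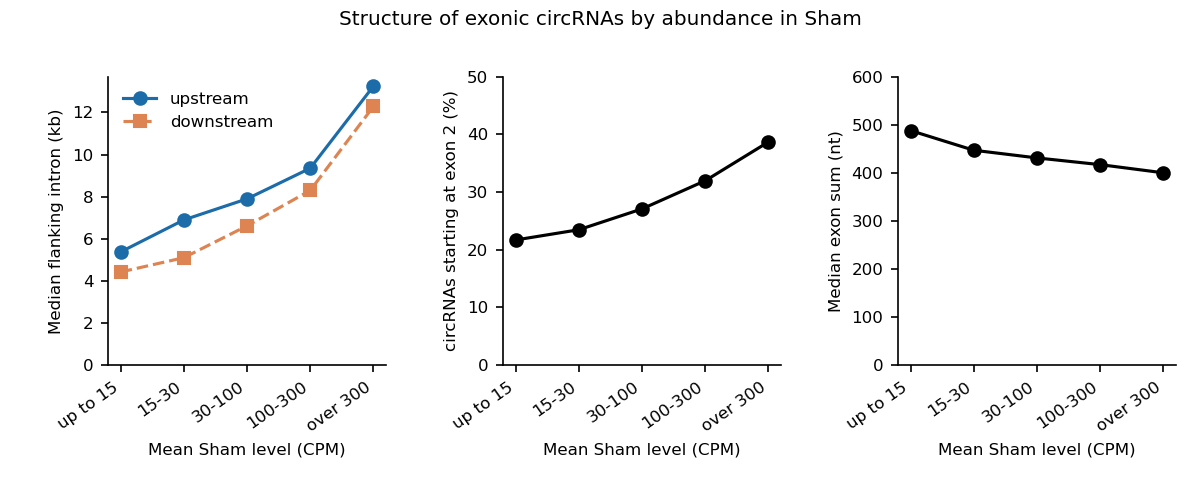
Sham exonic circRNAs in 5 bins of mean level (CPM), with the median length of the upstream and downstream introns in kilobases, the percent that begin at exon 2, and the median sum of exons in nt. From the lowest to the highest bin the share beginning at exon 2 goes from 21.7% to 38.7% and the median upstream intron from 5367 to 13253 nt.

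Intergenic is the authors' word for circles without a host gene in their annotation, and many of these lie in genes of GENCODE M21. Of the 635, 418 (65.8%) overlap a gene on the same strand, and 103 have both ends in 1 transcript, 31 of them of long intergenic non-coding RNA genes and 23 of protein-coding genes. Those 103 have a median exon sum of 336 nt where the listing gives 5903. For 149 circles the listed start meets an exon start only after adding 1 base. Exon 2 of Pvt1, a long non-coding RNA gene beside Myc, is such a case. Its circle (novel_circ_023843, chromosome 15 from 62107148 to 62107465 after that shift, 318 nt) had 667, 823 and 495 CPM, and its junction, written as above, is:
Pvt1: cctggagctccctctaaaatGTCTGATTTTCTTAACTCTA

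The most abundant intergenic circle (novel_circ_021121, 249 nt, chromosome 14 from 50807446 to 50807694, plus strand) had 4452, 3859 and 3351 CPM. It lies on the strand opposite to Rpph1, the RNA gene of ribonuclease P, and to Ccnb1ip1. The next (novel_circ_019686, chromosome 14 from 54963896 to 54991994, minus strand) joins exon 4 of Myh6 back to exon 6 of the neighbouring Myh7, the genes of the alpha and beta heavy chains of cardiac myosin. It had 1451, 1225 and 1480 CPM in Sham, more than the circle with the most counts within Myh6 (434, 310 and 257 CPM), and was listed at 0 in 2 of the other 13 libraries, with up to 1884 CPM there. The 2 genes are near copies: the last 50 bases of that Myh6 exon match Myh7 exon 5 at 48 positions, and the first 50 bases of the Myh7 exon match Myh6 exon 5 at 48. The like stretches are thus those of consecutive exons, 4 and 5 in Myh6 and 5 and 6 in Myh7, which linear mRNA of either gene joins. A read of such mRNA can resemble the listed junction, so whether this is a circle is uncertain, as is its gene of origin.

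The other 2 of the 5 most abundant intergenic circles lay over the pseudogenes Nlrp5-ps (609, 685 and 1168 CPM) and C4bp-ps1 (525, 685 and 599 CPM). Lncpint, a long non-coding RNA gene, gave 2 of the 5 longest listed spans among circles with a mean count of at least 20. Exon-intron circles were led by Zfp68 (659, 527 and 471 CPM) and Foxp1 (717, 395 and 220 CPM), the latter highest in Sham 1. Intronic circles were led by Pakap (233, 356 and 355 CPM), whose ends are those of an exon of another GENCODE transcript, Rbfox1 (208, 323 and 324 CPM) and Cacna1c (333, 211 and 214 CPM).

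Host genes gave 3.61 circles on average, a median of 2 and at most 69. Of 5134 host genes 1916 gave 1 circle and held 5.72% of host gene counts, while the 391 with at least 10 held 43.1%. Across host genes the number of circles had a Spearman correlation of 0.787 with the counts of the gene and of 0.366 with its number of exons. The first is partly built in, as a gene's counts are summed over those same circles, so it cannot be ranked against the second. The number of circles per gene is not corrected for depth here. Ryr2, the calcium release channel gene, and Ttn gave 69 each, of which 28 and 17 were in all 3 libraries. Among the next were Ptk2 (49), Utrn (42), Arhgap26 (39), Arhgap10 (38), Clasp1 (37), Mllt10 (36) and Prex2 (34). Summed over their circles, Nfix led with 16505 ± 1174 CPM, followed by Arhgap10, a GTPase-activating protein gene, with 11605 ± 1728 from 38 circles, Gigyf2 with 10909 ± 2229 and Asph with 10827 ± 1369. The last 3 do not differ beyond their spread.

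In most genes 1 circle led. Over 2214 host genes with at least 20 counts and 2 circles, the dominant circle held a median of 57.1% of the gene's counts (quartiles 42.2% and 77.9%). It held at least 90% in 244 genes and under 30% in 187. The median was 89.1% in genes with 2 circles and 30.2% in the 48 with at least 20. The dominant circle was the same in all 3 Sham libraries in 1448 of the 2214 genes, and in 495 of the 595 with at least 150 counts. In 412 of these 595 it was first in all 16 libraries. Another library shared 89.2% to 91.6% of the Sham leaders, and a single Sham library, which helped to define them, 91.6% to 95.5%.

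The ends of the scale were far apart. Selenbp1 (98.3%, 100% and 100% in Sham 1, 2 and 3), Trip6, Farsa, Zfp68, Gbe1 and Smyd4 gave nearly all counts to 1 of 2 circles. Mmp15, a membrane matrix metalloproteinase gene, gave 345, 399 and 543 counts of a single circle and no other, the most of 18 such genes with at least 150 counts (chosen after values were seen). At the other end stood Mllt10, a gene of a histone-methylation cofactor, whose leader held 13.8%, 11.01% and 10.67% among 36 circles. Prex2, Ckap5, Lrp5 and Ap3b1 were near it, with pooled shares from 14.5% to 16.7%. Between them, Ryr2's leading circle held 24.6% of its counts in Sham 1 and 37.7% and 39.0% in Sham 2 and 3, and that of Ttn 63.1%, 69.9% and 74.4%.

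Circles of a gene often shared a splice site. Of the exonic circles 68.7% shared an end with another. Some sites, named after their values were seen, served many. The acceptor of exon 2 of Tasp1 closed 12 circles, and 9 of these end in exons 3 to 12 of 1 transcript. The largest held 73.1% of the 1447 counts at that site. The donor of exon 118 of Ttn served 8 circles that begin between exons 66 and 104, with 72.2% of 547 counts in 1 of them.

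Genes of calcium handling and ion channels gave 3.33% ± 0.0940 of counts from 214 circles of 18 of the 27 genes on the list. Their median was 5 circles per gene against 2 over all host genes, which is not particular to this list. The median was 6 on the sarcomere, 6 on the endothelial and 9 on the smooth muscle list below, but 3 on the metabolic and 1 on the matrix list. The calcium and channel genes were led by Asph, Ryr2 (7846 ± 1072 CPM summed), Slc8a1 and the L-type calcium channel gene Cacna1c (2818 ± 182). Pln, Kcnh2 and Gja1 were among the 9 without a circle. Sarcomere and Z-disc genes gave 1.59% ± 0.146 from 19 of 26 genes, led by Ttn (9699 ± 1586), Pdlim5 (2734 ± 490) and Fhod3 (1601 ± 266), with Des, Tcap and Csrp3 at 0. Thus both lists of muscle genes hold members with over 20 circles and members with 0.

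Metabolic genes gave 0.791% ± 0.0712 from 19 of 30 genes, mostly Ogdh (5172 ± 447) and the fatty acid transporter gene Cd36 (1519 ± 298). Endothelial genes gave 0.469% ± 0.0621 from 14 of 18, led by Pecam1 (1719 ± 356), with Kdr, Eng, Erg and Adgrl4 at 0. Leukocyte genes gave 0.284% ± 0.0662 from 13 of 18, led by the macrophage gene Adgre1 (898 ± 229, with 81, 172 and 145 counts). Ptprc, Csf1r, Cd163, Vav1 and Cd74 were at 0. Smooth muscle and pericyte genes gave 0.561% ± 0.0499 from 5 of 12, of which Myocd, also a heart muscle gene, took 3779 ± 533. Extracellular matrix and fibroblast genes gave 0.154% ± 0.00715 from 13 of 22, led by Ltbp1 (712 ± 96.3).

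Regulators of splicing and of circle formation were themselves hosts in 16 of 21 cases (0.366% ± 0.0334). Qk, the Quaking gene, had 12 circles (1480 ± 227), and Rbm20, the splicing regulator of Ttn, had 8 (446 ± 119). Of 25 AMPK genes 19 gave circles (0.233% ± 0.0188), with Acaca, the acetyl-CoA carboxylase gene that AMPK controls, highest at 667 ± 304 (117, 100 and 60 counts in Sham 1, 2 and 3). Of 38 host genes of well-studied circRNAs 31 gave circles in Sham, with 5.01% ± 0.319 of counts. Cdr1as and Smarca5 had none by host gene name, and Pvt1 only as the intergenic circle above. Platelet genes (3 of 8, 0.0436% ± 0.0107), neuronal and Schwann genes (2 of 10, 0.0348% ± 0.00813), adipose genes (1 of 6, 0.0266% ± 0.00238) and erythroid genes (0 of 7) gave little.

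Whether the shape of the repertoire differs between uninjured and injured hearts was asked with 6 measures of 1 value per library. Each was compared with MIRI and with the other 13 libraries by two-sided exact permutation of the difference of means, adjusted by Benjamini-Hochberg over the 12 tests. The 13 pool MIRI with both treatments, so a difference from them is not one of injury alone. Equal depth means thinning to 119948 counts, the total of Sham 1, which therefore stayed whole. Counts of 1 left by thinning were then dropped, so the other libraries ended below that total. At equal depth MIRI+AICAR had 11139 circles on average and MIRI+Compound C 10786 (n = 5 each), against 10705 in Sham. With 3 against 3 the smallest possible p is 0.10, so that comparison could not pass at 0.05, and against 13 libraries it is 0.00179. Of the 12, 0 passed after adjustment and 1 was under 0.05 before it.

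That 1 concerned the median share of the dominant circle at equal depth. It was 55.8%, 57.2% and 57.4% in Sham, 56.0%, 56.0% and 55.7% in MIRI, and from 55.0% to 57.3% in the other 13 libraries together (mean 55.8% ± 0.576, n = 13). The Sham mean was 1.03 percentage points higher (exact permutation p = 0.0268, adjusted p = 0.24), with 2 of 3 Sham libraries above all 3 MIRI libraries. With another random seed for the thinning the difference was 0.638 points (exact permutation p = 0.30, adjusted p = 0.514), and with a minimum of 5 counts it was 1.55 points (exact permutation p = 0.0179, adjusted p = 0.214). Without thinning the Sham values were 55.8%, 56.0% and 55.4%, so Sham 1 was the lowest of the group only after thinning. The difference from the other 13 was then 1.14 points, at unequal depths (exact permutation p = 0.0464, adjusted p = 0.257). Circles per host gene at equal depth were 2.67, 2.72 and 2.70 in Sham against 2.74 to 2.78 in MIRI, where the ranges did not overlap (exact permutation p = 0.10, the smallest possible, adjusted p = 0.24), and 2.65 to 2.80 over the other 13 (exact permutation p = 0.0946, adjusted p = 0.24). Neither measure passed after adjustment.

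**Figure D5:**
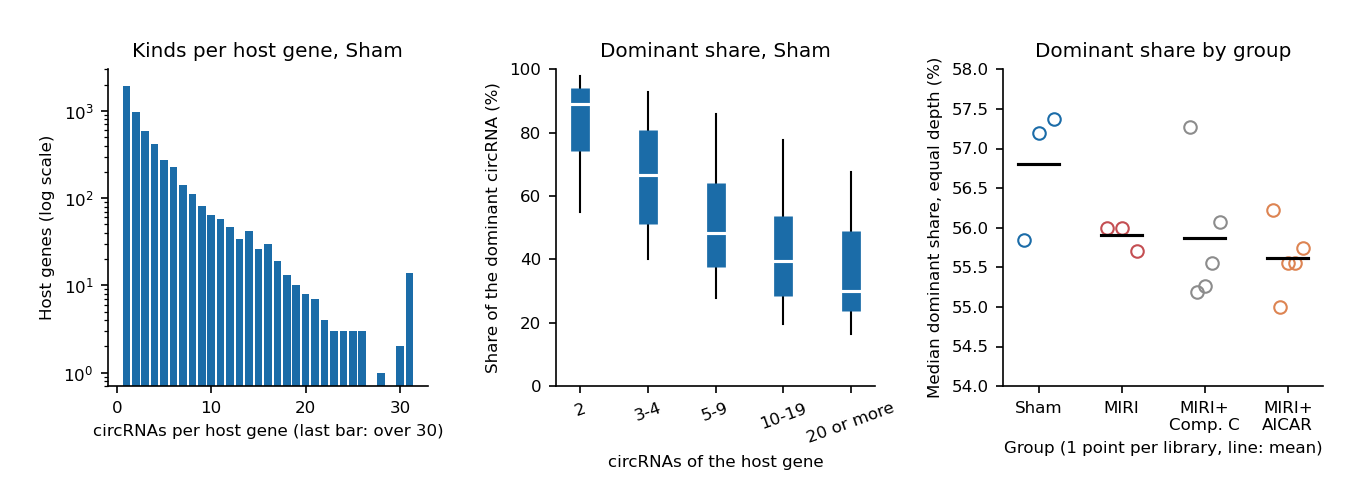
Left, the number of Sham host genes (log axis) by circRNAs per gene. Middle, the share of the dominant circRNA by number of circRNAs, with median (white line), quartiles (blue bar) and the 5th to 95th percentiles (black line). Right, the median dominant share at equal depth for each library (points) and group mean (line), on an axis that does not start at 0, with Sham at 55.8%, 57.2% and 57.4%.

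Sham 1 has 119948 counts and was not thinned. After thinning the other libraries to that total, 10714, 10849 and 10551 circles had at least 2 counts in Sham. MIRI held 10751 to 11193 and the other 13 libraries 10403 to 11235 (differences of means -238 and -253, exact permutation p = 0.20 and 0.0857, adjusted p = 0.343 and 0.24). The count-weighted median length of exonic circles averaged 455 ± 23.8 nt in Sham, 468 ± 21.6 in MIRI (n = 3) and 474 ± 14.1 over the other libraries (n = 13; exact permutation p = 0.60 and 0.0714, adjusted p = 0.60 and 0.24). Without Sham 1 the length difference from MIRI was 0.833 nt and that from the others -5.73 nt. The exonic share of counts was 95.3% ± 0.263 against 95.4% ± 0.0985 and 95.4% ± 0.136 (adjusted p = 0.60 and 0.325 by exact permutation), and the 10 leading circles held 7.14% ± 0.331 against 7.33% ± 0.562 and 7.35% ± 0.394 (adjusted p = 0.60 and 0.536 by exact permutation). In these measures the Sham values lay within the range of the other 13 libraries, except those of Sham 1, whose exonic share and length were the lowest of the 16.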

How the data were processed

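Per the labels, RNA of mouse hearts was treated with RNase R, depleted of ribosomal RNA and made into dUTP stranded libraries. The deposited values are back-splice junction counts that the authors obtained with CIRI, per the file header (version and read threshold not given in the sources used here). Besides, the authors list other deposited values, each circRNA's Type, host gene and spliced length. The submitters' processing notes name mm9, yet 97.3% of starts and 96.9% of ends of Sham exonic circRNAs lie on GENCODE M21 exon boundaries of GRCm38, so coordinates are given on GRCm38. A start that met an exon only 1 base further was shifted in the match. Counts were divided by the library total (CPM). Depth of 119948 to 163551 counts in Sham puts 3 counts at 18.3 to 25.0 CPM, which covers counting error only.

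The 6 measures were the number of circRNAs, the share of each library's 10 leading circRNAs, the exonic share, the count-weighted median length of exonic circRNAs, circRNAs per host gene and the median dominant share (host genes of at least 20 counts and 2 circRNAs). The first and the last 2 were taken after thinning to 119948 counts (seed 11) with at least 2 counts. Sham 1, whose total this is, stayed whole and lost no counts of 1, as the thinned libraries did. The code was tested on simulated data. Python 3.11.15, pandas 2.3.3, matplotlib 3.10.9 and R 4.3.3 were used. Alternatives were other count minimums, no thinning, another seed, other scalings, leaving out each library and a replicate block. The circRNAs, gene lists and tests were chosen with earlier results of these data known. Named were the 20 most abundant circRNAs, 10 host genes by number and 10 by counts, 6 at each end of dominant share, 5 per other Type, 5 at each end of length and up to 4 per list, of which those that add to the account are printed, and 1 host gene is not reported here.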

Additional observations from a re-analysis of the deposited data

Results flagged for a closer look

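Among 12 sets of values, the 6 measures in MIRI+AICAR and in MIRI+Compound C with 5 libraries each, 2 held a library far from the others by Dixon's criterion, which chance meets in about 1 of 20 groups. Both were MIRI+Compound C 1, with 10403 circRNAs at equal depth, where the other 4 libraries of its group held 10829 to 10923, and with a count-weighted median length of 446 nt, where the others had 471 to 481. The Sham group, with 3 libraries, was not tested in this way. Sham 1 and MIRI 1 also had the lowest such length of their groups, 428 and 445 nt.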

How the results depend on the processing

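Of 188 alternative values of the 12 tests, 0 passed at 0.05 after adjustment, and 182 kept their direction. Those against MIRI could not pass in any setting, as their exact permutation p cannot go below 0.10. With a count minimum of 5, the differences turned to 11.2 circRNAs (Sham against the other 13 libraries, adjusted p = 0.90 by exact permutation), and to 0.00458 (MIRI) and 0.00591 (the other 13) circRNAs per host gene. Leaving out 1 library, the difference from MIRI ranged from -0.259 to 0.00379 points of exonic share, from -24 to 0.833 nt of length (both highest without Sham 1) and from -0.477 to 0.0844 points in the 10 leading circRNAs (highest without MIRI 3). The difference in dominant share from the other 13 ranged from 0.743 to 1.51 points without 1 library (exact permutation, adjusted p between 0.0527 and 0.366), but its unadjusted p depended on the thinning: with another seed it was 0.638 points (exact permutation p = 0.30).

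The number of Sham circRNAs depends on the rule: 10312 in at least 2 libraries, 6253 in all 3, 7721 with a minimum of 5 counts, and 15847 to 16904 without 1 library. The pooled median dominant share was 56.2% in host genes of at least 50 counts and 56.0% to 57.3% without 1 library. The level of the Nfix circle stayed between 15607 and 16674 CPM under the TMM scaling of edgeR 4.0.16, the RLE scaling of DESeq2 1.42.0 and without each library.

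The labels give groups the same replicate numbers. Deviations of same-numbered Sham and MIRI libraries from their group means correlated at 0.133, -0.0286 and 0.0911 over 1432 circRNAs. Sham 1 and 3 correlated best with their own number and Sham 2 did not, so the numbers were not taken as pairs. Yet library 1 had the lowest count-weighted median length of every group: 428 nt (Sham), 445 (MIRI), 446 (MIRI+Compound C) and 475 (MIRI+AICAR). Its share of counts in the 10 leading circRNAs was also the lowest of each group. What same-numbered libraries have in common was not tested. With the replicate block, differences were -238, -0.194, -0.128, -12.7, -0.0528 and 0.905 against MIRI in the order of the measures, with exact permutation p from 0.25 to 0.75. With 8 arrangements the smallest possible p there is 0.25, so the block tests against MIRI could not pass. In all, 0 of 12 passed (smallest adjusted p = 0.312 by exact permutation). Depth limits what is said of circRNAs under about 20 counts, for which counting makes up much of the spread.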
